A study of Mus musculus with 6 samples.

Results

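The T cell receptor (TCR) signalling components described here are 38 genes that act in 1 pathway: the CD3 and zeta chains, coreceptors and surface modulators, proximal kinases, adaptors, effectors, the NF-kB bridge, calcineurin and NFAT, and intracellular brakes. They were picked by symbol from the 24421 genes of the RNA-seq count matrix, and all 38 were found in it. The matrix comes from CD4+YFP+ regulatory T (Treg) cells sorted from spleens of C57BL/6 female mice, 8 to 11 weeks old, with 1 library per mouse. The 3 WT mice were Foxp3Cre, which express a YFP-Cre fusion from the Foxp3 locus, that is, in Foxp3-expressing cells. The 3 KO mice were Foxp3Cre miR-142fl/fl, in which the same Cre deletes the microRNA gene miR-142. Both groups thus carried the Foxp3Cre allele and were gated on the same reporter, and neither received any treatment. The comparison asks which parts of the receptor pathway are expressed at another level in Treg cells that lack miR-142. Per the paper, mice of the KO genotype develop a fatal systemic autoimmune disease. It names the inflammation in these mice as a conceivable source of changes in Treg gene expression. Loss of miR-142 in the cell and the diseased host go together here and cannot be told apart.

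When the TCR binds peptide presented on MHC, Lck phosphorylates tyrosine motifs in the CD3 and zeta chains, Zap70 docks there, and Zap70 phosphorylates the scaffolds Lat and SLP-76. Phospholipase C-gamma then makes the second messengers that open calcium entry, which activates calcineurin and NFAT, and that activate Ras and PKC-theta, which lead to MAP kinase and NF-kB. Phosphatases, Csk, Cbl-b and diacylglycerol kinases damp each of these steps, and Treg cells need TCR signals both to develop and to suppress.

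A microRNA pairs through its seed, bases 2 to 8, with short matches in 3′ untranslated regions (UTRs). The 2 mature products of the deleted gene are shown because they define the matches searched for. The sequences are those of RefSeq on GRCm38.p6, 5′ to 3′ on the plus strand, at chr11:87756903-87756925 for the 3p arm and chr11:87756867-87756887 for the 5p arm, with the seed in capitals.
miR-142a-3p: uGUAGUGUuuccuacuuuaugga
miR-142a-5p: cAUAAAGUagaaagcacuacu

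The longest annotated 3′ UTR of each gene (GENCODE vM21, GRCm38) was searched on the transcript strand for ACACTAC and CACTACA, which pair with miR-142-3p, for AACACTA and ACACTAA, which pair with a 3p form that starts 1 base later, and for ACTTTAT and CTTTATA, which pair with miR-142-5p. The words of each pair overlap, and an 8-base match holding both was counted as 1 place. All 38 members had a 3′ UTR, with a median length of 1446 bases against 1186 bases over the tested genes. A 3p match of either form was present in 8 members (21.1%), against 22.7% of the 10786 tested genes with a 3′ UTR. A 5p match was present in 10 members (26.3%), against 23.5%. These shares were close to those of the tested genes as a whole. A match is a description of sequence and does not show that a site is used.

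The matches in members that differed between genotypes, and those in Grap2 and Sos1, which hold 8-base matches but did not pass the test below, are all printed here with 9 bases on each side and the matched bases in capitals. Those of Cd6 lie at chr19:10789608-10789614 (minus strand), those of Themis at chr10:28881674-28881681 and chr10:28882725-28882731, those of Ppp3ca at chr3:136936334-136936340 and chr3:136936721-136936727, that of Nfatc3 at chr8:106128582-106128588, those of Grap2 at chr15:80648678-80648685 and chr15:80652479-80652486, and those of Sos1 at chr17:80398075-80398082, chr17:80397054-80397061, chr17:80394838-80394844 and, for 5p, chr17:80394869-80394875 (minus strand).
Cd6, 5p match: ttccttgggCTTTATAagagcatcc
Themis, first 5p match: ttgccttgtACTTTATAtactatatt
Themis, second 5p match: atataataaACTTTATgacctgtcc
Ppp3ca, 5p match: tggcgtgtgCTTTATAttctcgaaa
Ppp3ca, 3p match: caggtcattCACTACAgcctcaagc
Nfatc3, 5p match: gctcttactCTTTATAaaataaagt
Grap2, first 5p match: taaagctgaACTTTATAatgacacat
Grap2, second 5p match: tttgtagatACTTTATAtattcatgg
Sos1, first 3p match: agaactccaAACACTAAcgactctac
Sos1, second 3p match: aaacatacaAACACTAAgcataaaag
Sos1, last 3p match: ttcatttgaAACACTAttaactttt
Sos1, 5p match: aaagcaatgACTTTATtcaatggtt

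Total counts ranged from 13883069 to 24042994 per library, and the lowest count of any member in any library was 755. Mir142b, an antisense annotation overlapping the deleted gene, had 147, 101 and 105 reads in WT replicates 1, 2 and 3 and 7, 5 and 5 in the KO replicates, while Mir142 itself had 0 in all 6. Foxp3, the defining transcription factor of Treg cells, was present in every library, between 536 and 595 CPM in WT and between 642 and 749 CPM in KO. CPM here is the read count per library size after TMM scaling. One KO library stood apart: in KO replicate 1, 8 B cell markers summed to 2320.0 CPM, against 60.1 to 72.4 in WT and 202 and 285 in the other KO libraries. In KO replicate 1 most of that sum was Cd74 (2097 CPM), although all 8 markers were at their highest there. In KO replicates 2 and 3 the sum was nearly all Cd74 (194 and 273 CPM), while Cd79a and Cd79b were below every WT library. In KO replicate 1, 12 monocyte and macrophage markers summed to 2838 CPM, against 9.79 to 13.6 in WT and 20.5 to 85.6 in the other KO libraries, and all 12 were at their highest there. The corresponding sums for 12 neutrophil markers were 955, 0.277 to 1.54 and 8.40 to 48.7 CPM, for 8 CD8 and NK cell markers 217, 33.7 to 34.7 and 88.8 to 97.5 CPM, and, for 9 erythroid markers, 5 of them at 0 in every library, 18.9, 0.885 to 1.39 and 6.02 to 14.9 CPM. In KO replicates 2 and 3 the CD8 and NK cell sum was mostly Eomes (42.0 and 29.8 CPM) and Gzmb (28.3 and 46.2 CPM), with Cd8b1 at 11.4 and 13.1 CPM against 11.5 to 13.8 CPM in WT and Klrb1c lower than in WT. The part of these other transcripts in the results was not tested. Calls that changed without KO replicate 1 are given with and without it, as are the values of some other members. In bulk RNA, fewer cells of a type and less RNA per cell cannot be told apart.

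Of the 38 members, 7 differed between KO and WT. Cd6, Themis and Ppp3ca were up-regulated in KO, and Lck, Fyn, Nfatc1 and Nfatc3 were down-regulated (edgeR quasi-likelihood F test, Benjamini-Hochberg FDR under 0.05 over the 11658 genes tested, those above 1 CPM in 3 or more libraries). The share called, 18.4%, was near the 18.8% called among all tested genes. By direction, 3 members were higher against a background of 11.6%, and 4 were lower against 7.27%. All 7 also passed when the quasi-likelihood, likelihood ratio and exact tests were required together, as did 17.1% of all tested genes. KO and WT libraries did not overlap for 17 members (44.7%), 6 higher and 11 lower, against 41% of all tested genes, 22.2% higher and 18.8% lower.

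The changes were small. The largest was 1.76-fold (Themis), whereas 9.63% of tested genes, 1123 in number, moved by at least 2-fold. The members had WT means from 71.3 to 2930 CPM, while tested genes were kept from 1 CPM in 3 libraries. The comparison is thus not matched for level. The log2 fold change of KO over WT was negative for 27 members and positive for 11, with a median of -0.10, against 0.02 over all tested genes. For 36 of the 38 the 95% interval of the log2 fold change lay within 1 of 0, the exceptions being Themis and Ppp3ca, and for 23 it lay within 0.5.

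**Figure D1:**
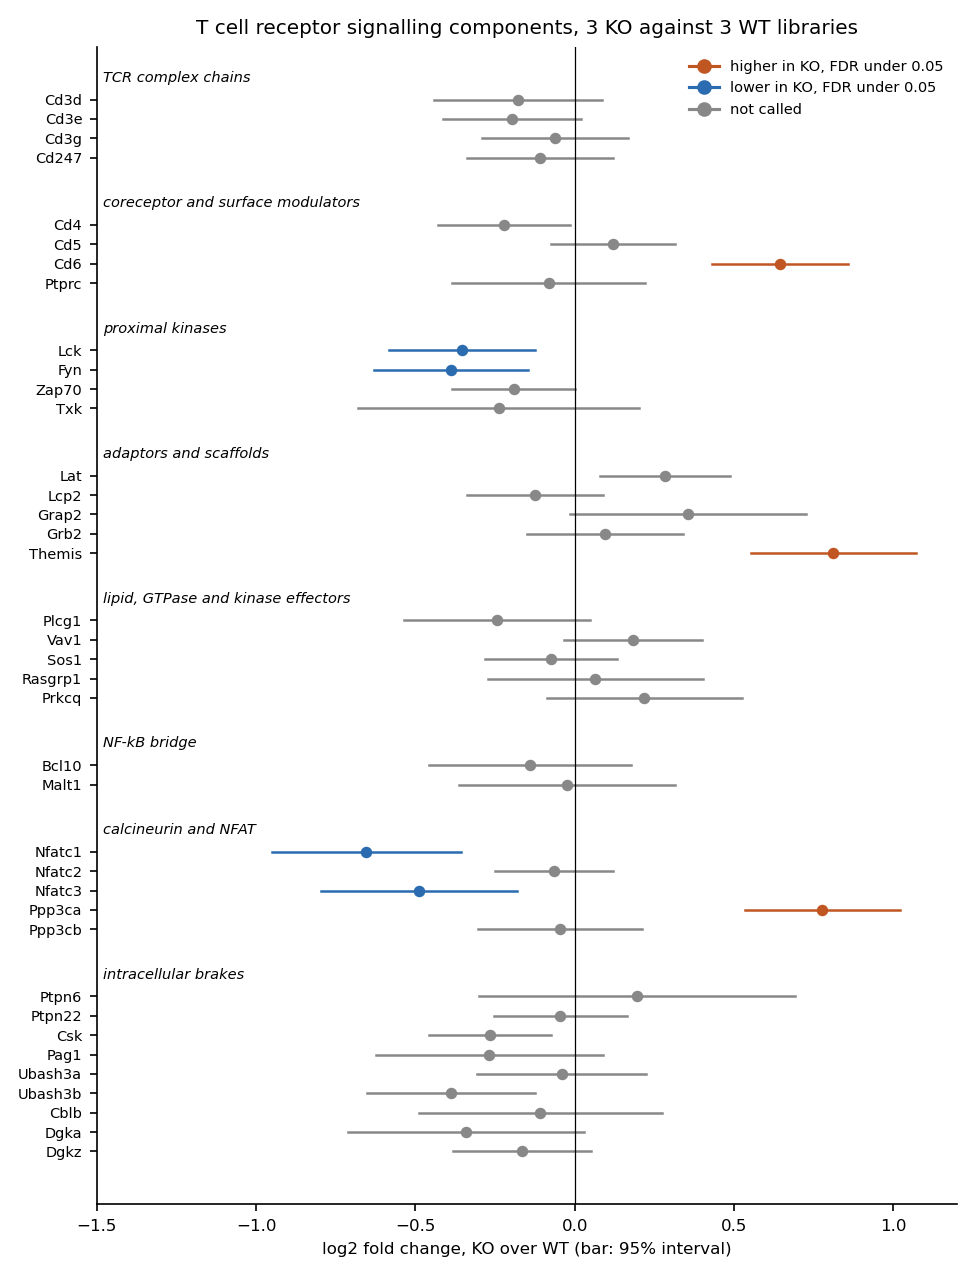
Log2 fold change of KO over WT for the 38 TCR signalling components, grouped by role, with bars for the 95% interval (n = 3 libraries per genotype). Members called higher are orange, members called lower are blue and the 31 not called are grey. The called members fall in the surface, kinase, adaptor and calcineurin/NFAT groups, with Themis at 0.81 and Nfatc1 at -0.65 as the extremes.

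None of the 4 receptor chains passed the quasi-likelihood test, and 0 had an unadjusted p under 0.05 or passed with the likelihood ratio test, the exact test or DESeq2. Cd3e, a CD3 chain with a signalling motif, was at 678, 733 and 626 CPM in WT and at 589.5, 594 and 594 CPM in KO. Every KO library lay below every WT library, and the log2 fold change was -0.20 (SE 0.09, FDR = 0.178). The remaining chains had log2 fold changes of -0.18 (Cd3d), -0.06 (Cd3g) and -0.11 (Cd247, the zeta chain), with overlapping libraries. Reads were counted without strand and 60.3% of the annotated exon bases of Cd247 are shared with other genes, among them Pou2f1 on the opposite strand, so its value is uncertain. On reads per kilobase, Cd3g made up 30.3% ± 0.469 of the 4 chains in WT and 32.1% ± 0.666 in KO (SD, n = 3 each, exact two-sided permutation p = 0.1, the smallest that 3 against 3 allows). Cd3d, Cd3e and Cd247 gave p between 0.4 and 1 in the same exact test.

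Cd6, a scavenger-receptor family protein that sits with the TCR and tunes its signal, was the 1 surface molecule called. It was at 754, 732 and 766 CPM in WT and at 1168, 1245 and 1107 CPM in KO. The groups were far apart relative to their spread, at 750.5 ± 17.2 and 1173 ± 69.1 CPM (mean ± SD, n = 3). The log2 fold change was 0.64 (SE 0.09, FDR = 0.00490), and per kilobase Cd6 moved from rank 17 to rank 9 among the members. Cd5, its relative and a known attenuator of TCR signals, had a log2 fold change of 0.12 (FDR = 0.346).

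Cd4, the MHC class II coreceptor and the sorting marker, was at 1043, 1015 and 1005 CPM in WT and at 833, 867 and 926 CPM in KO. The KO libraries all lay below WT, and KO over WT was -0.22 on the log2 scale (SE 0.09, unadjusted p = 0.0398 in the same model, FDR = 0.123). Ptprc encodes CD45, the phosphatase that removes the inhibitory phosphate of Lck. It was at 2484, 3320 and 2987 CPM in WT and at 2819, 2796 and 2689 CPM in KO. The libraries overlapped, and the log2 fold change was -0.08 (SE 0.13, FDR = 0.692).

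Among the proximal kinases both Src-family members were lower in KO. Lck, which starts the cascade, was at 926, 967 and 967 CPM in WT and at 717, 700 and 821 CPM in KO. All KO libraries lay below the lowest WT library. The log2 fold change was -0.35 (SE 0.10, FDR = 0.0449). Fyn, the other Src-family kinase of T cells, was at 727, 759 and 724 CPM in WT and at 514, 629.7 and 546 CPM in KO. Again no KO library reached WT, and the log2 fold change was -0.39 (SE 0.10, FDR = 0.0397). Lck made up 65.8% ± 0.614 of the summed Lck and Fyn reads per kilobase in WT and 66.3% ± 3.55 in KO (SD, n = 3 each, exact two-sided permutation p = 0.9).

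Both kinase calls were near the threshold. With 1 library left out, the FDR of Lck ranged from 0.0445 to 0.153, under 0.05 only without KO replicate 3, and that of Fyn from 0.0164 to 0.145, under 0.05 only without KO replicate 2. Without KO replicate 1 Lck was at -0.34 (FDR = 0.0719) and Fyn at -0.34 (FDR = 0.0665). With libraries scaled to the summed CD3 chains instead of TMM, which raises the median log2 fold change of all tested genes from 0.02 to 0.15, Lck was at -0.22 (FDR = 0.203) and Fyn at -0.26 (FDR = 0.157). Zap70, the kinase recruited to the phosphorylated chains, was at 365, 368 and 348 CPM in WT and at 335, 303 and 308 CPM in KO. Its groups did not overlap either, and the log2 fold change was -0.19 (SE 0.08, FDR = 0.147). Txk, a Tec-family kinase, was at -0.24 (FDR = 0.407), with -0.09 (FDR = 0.712) without KO replicate 1 and -0.46 (FDR = 0.0466) without KO replicate 2.

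**Figure D2:**
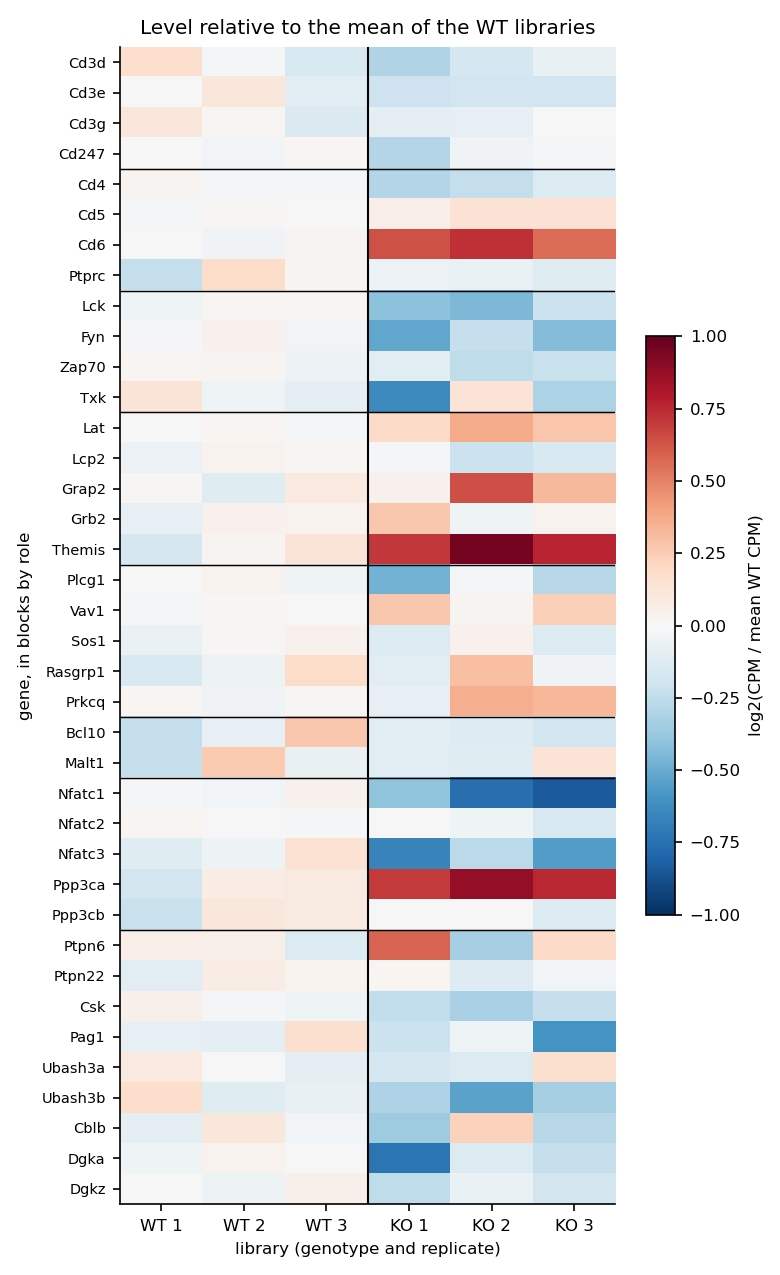
Heat map of log2(CPM over the mean WT CPM) for the 38 members (rows, in blocks by role) in the 6 libraries (columns), on a scale from -1 to 1. Cd6, Themis and Ppp3ca are red in all 3 KO libraries, whereas Nfatc1, Nfatc3, Lck and Fyn are blue in all 3. The median over the members was -0.10, -0.06 and -0.13 in KO replicates 1, 2 and 3.

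Among the 5 adaptors and scaffolds only Themis passed. Themis binds Grb2 and regulates SHP-1 during T cell selection. It was at 87.5, 100.02 and 107 CPM in WT and at 160.5, 191 and 167 CPM in KO. The lowest KO library was well above the highest WT library. The means were 98.3 ± 10.1 and 173 ± 15.9 CPM (SD, n = 3), and the log2 fold change was 0.81 (SE 0.11, FDR = 0.00432). Lat, the membrane scaffold on which the signalling complex assembles, was at 0.28 on the log2 scale (SE 0.09, FDR = 0.0606), and its KO libraries all lay above WT. Under CD3-chain scaling Lat was at 0.42 (FDR = 0.0276), and DESeq2 also called it. Over all tested genes, that scaling called 15.4% higher and DESeq2 14.3%, against 11.6% in the main fit.

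Grap2 encodes Gads, which links Lat to SLP-76, and was at 0.36 (SE 0.16, FDR = 0.157). Its libraries, described after their values were seen, were at 519.6, 475 and 552 CPM in WT and at 530.4, 806 and 644 CPM in KO. The overlap came from KO replicate 1, and without that library Grap2 passed, at an FDR of 0.0390 and a log2 fold change of 0.48. Without KO replicate 2, its highest library, it was at 0.19 (FDR = 0.285). Lcp2, which encodes SLP-76, was at -0.13 and Grb2 at 0.09.

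None of the 5 lipid, GTPase and kinase effectors passed the quasi-likelihood test or any of the other tests named above, and 0 had an unadjusted p under 0.05. Plcg1, the phospholipase of the pathway, was at -0.24, and Vav1 at 0.18 with no overlap between groups. The Ras exchange factors Sos1 and Rasgrp1 were at -0.07 and 0.06. Prkcq encodes PKC-theta and was at 0.22 (FDR = 0.278). Without KO replicate 1 its FDR was 0.0493, and without KO replicate 2 those of Plcg1 and Vav1 were 0.0405 and 0.0499. Bcl10 and Malt1, which carry the signal from PKC-theta to NF-kB, were at -0.14 and -0.02, with overlapping libraries and likewise 0 of 2 under each test.

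In the calcineurin and NFAT branch, 3 of 5 members differed, and in opposite directions. Of these, 1 was higher and 2 were lower, against 11.6% and 7.27% of all tested genes. No test was run on this small group, and the 2 lower calls were less steady, as given below. Ppp3ca, a catalytic subunit of calcineurin, the calcium-dependent phosphatase that frees NFAT to enter the nucleus, was at 64.5, 76.9 and 78.0 CPM in WT and at 119, 135 and 123 CPM in KO. The KO libraries all exceeded WT by more than the spread within either group. The means were 73.1 ± 7.46 and 125 ± 8.21 CPM (SD, n = 3), and the log2 fold change was 0.78 (SE 0.10, FDR = 0.00411). Ppp3cb, the second catalytic subunit, was at -0.05 (FDR = 0.794).

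The make-up of the catalytic subunits shifted accordingly on reads per kilobase. These shares come from the same counts as the fold changes, and a rise of any subunit lowers the shares of the others. The exact tests on them are thus no separate evidence for the change in Ppp3ca. Ppp3ca made up 14.8%, 16.0% and 15.7% of the 3 catalytic subunit transcripts in WT and 23.9%, 25.0% and 26.2% in KO. Every KO share was above every WT share (exact two-sided permutation p = 0.1, the smallest possible). Ppp3cc, the remaining subunit, went from 50.6% ± 3.01 to 44.0% ± 1.26 (SD, n = 3 each, p = 0.1 in the same exact test) and stayed the largest share, and Ppp3cb from 33.9% ± 2.36 to 31.0% ± 1.28 (SD, n = 3 each, exact permutation p = 0.2). That order rests on merged exon lengths, 2985 bases for Ppp3cc, 9981 for Ppp3ca and 8809 for Ppp3cb. By mean CPM Ppp3cc was the lowest of the 3, at 71.1 in WT against 73.1 for Ppp3ca and 141 for Ppp3cb. In KO it was at 66.0 CPM, against 125 and 137. Ppp3cc itself was not called, with a log2 fold change of -0.11 (FDR = 0.477 in the quasi-likelihood test).

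Nfatc1, a calcineurin-regulated transcription factor that is itself induced by TCR signals, was at 506, 501 and 526 CPM in WT and at 386, 303 and 285 CPM in KO. All KO libraries were lower, with KO replicate 1 nearest to WT. The means were 511 ± 13.2 and 325 ± 54.2 CPM (SD, n = 3), and the log2 fold change was -0.65 (SE 0.13, FDR = 0.0146). Without KO replicate 1 it was -0.81 (FDR = 0.00168). Nfatc3, another family member, was at 524, 550.0 and 633 CPM in WT and at 358, 472 and 386 CPM in KO. The groups did not overlap, and the log2 fold change was -0.49 (SE 0.13, FDR = 0.0417). Nfatc2 was at -0.07 (SE 0.08, FDR = 0.600), with a 95% interval from -0.25 to 0.12.

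Among Nfatc1, Nfatc2 and Nfatc3, Nfatc2 thus made up 15.2% ± 0.853 of the reads per kilobase in WT and 20.4% ± 0.409 in KO (SD, n = 3 each, exact two-sided permutation p = 0.1, the smallest possible). The share of Nfatc1 was 49.7% ± 1.08 and 44.3% ± 5.25, and that of Nfatc3 35.2% ± 1.91 and 35.4% ± 5.23 (SD, n = 3 each, exact permutation p = 0.3 and 1). Under CD3-chain scaling neither lower call held: Nfatc1 was at -0.52 (FDR = 0.0630) and Nfatc3 at -0.36 (FDR = 0.145). With 1 library left out, Nfatc1 passed in 4 of 6 fits, failing without WT replicate 2 or 3 (highest FDR 0.0615), and Nfatc3 in 1 of 6, without KO replicate 2. Without KO replicate 1 Nfatc3 was at -0.42 (FDR = 0.0632).

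**Figure D3:**
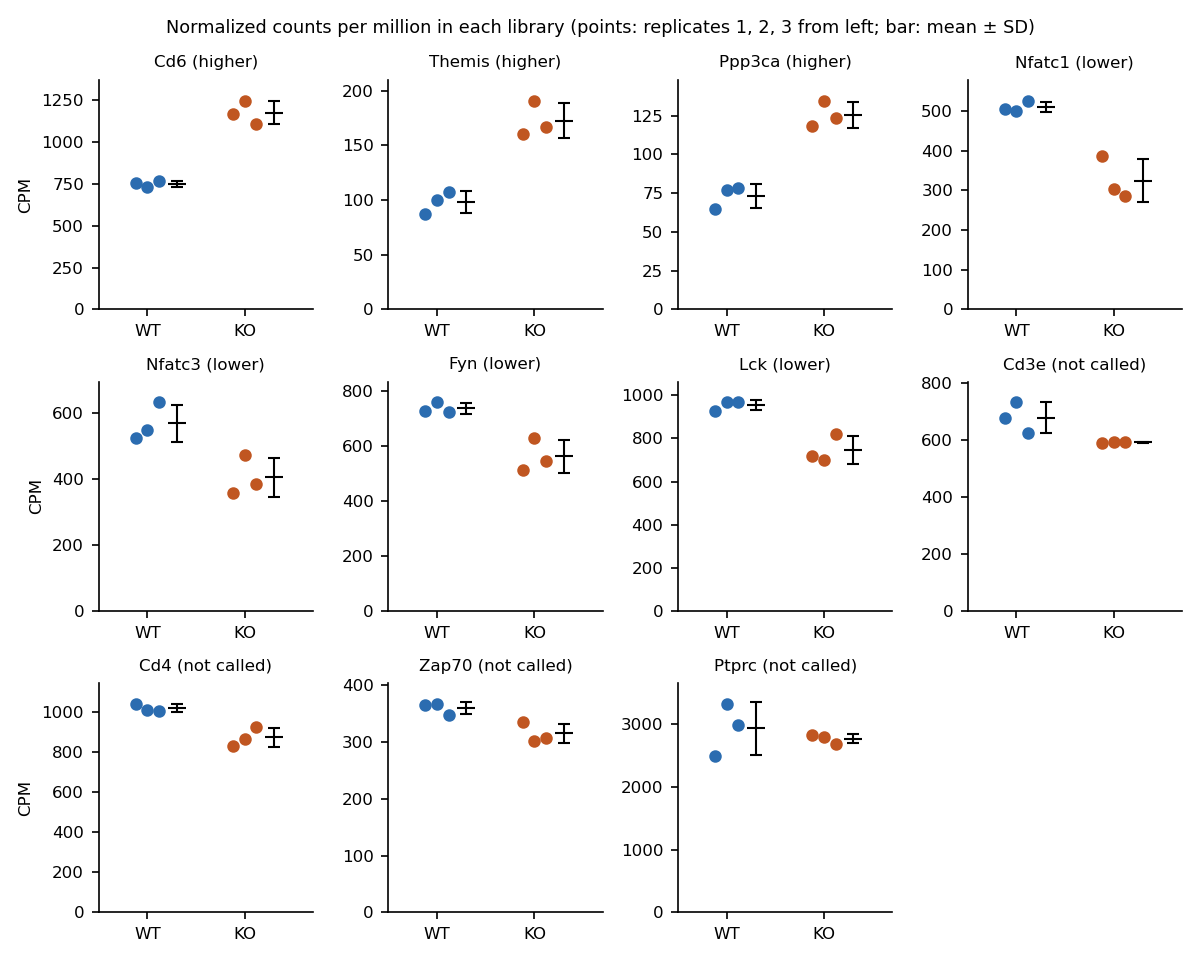
CPM of the 7 called members and of Cd3e, Cd4, Zap70 and Ptprc in each library, with WT in blue, KO in orange and the mean ± SD (n = 3) beside the points; every axis starts at 0. The genotypes are separated in all panels but Ptprc, where the KO points lie within the WT range of 2484 to 3320 CPM.

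No intracellular brake passed the quasi-likelihood, likelihood ratio or exact test, although 8 of the 9 had a negative log2 fold change, 2 had an unadjusted p under 0.05 and the same number passed with DESeq2. The nearest was Ubash3b, which encodes Sts-1, a phosphatase acting on Zap70, at -0.39 (SE 0.11, FDR = 0.0525), and without KO replicate 1 it passed at -0.45 (FDR = 0.0442). Csk, which phosphorylates the inhibitory tyrosine of Lck and Fyn, was at -0.27 (SE 0.08, FDR = 0.0611), and Pag1, the membrane adaptor that recruits Csk, at -0.27 (FDR = 0.253). Csk and Ubash3b had no overlap between groups, and both passed with DESeq2 and with scaling by library size alone. Each of these settings called 10.3% of all tested genes lower, against 7.27% in the main fit.

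Dgka and Dgkz, the kinases that consume diacylglycerol, were at -0.34 (FDR = 0.173) and -0.17 (FDR = 0.246), with every KO library below WT. The Dgka libraries, described after their values were seen, were at 1359, 1433 and 1401 CPM in WT and at 844, 1274 and 1190.0 CPM in KO, with KO replicate 1 the farthest from WT. Without that library Dgka was at -0.20 (FDR = 0.223). Ptpn6, which encodes the phosphatase SHP-1, was the 1 brake with a positive value, 0.19 (SE 0.21, FDR = 0.558). It was at 300.5, 298 and 261 CPM in WT and at 428, 227.5 and 328 CPM in KO, with the largest SE of any member, and without KO replicate 1 its log2 fold change was -0.06. Ptpn22, another inhibitory phosphatase, was at -0.04, Ubash3a, the Sts-2 gene, at -0.04 and Cblb, a ubiquitin ligase, at -0.11, all with overlapping libraries.

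Per kilobase of exon the members spanned a wide range of levels. The lengths were those of all annotated exons merged, which can exceed the transcript expressed, so the order is approximate. Themis had 11682, Txk 10955 and Ppp3ca 9981 such bases. By mean WT CPM, without regard to length, Themis (98.3) and Ppp3ca (73.1) were also low, against a median of 405 over the members. Lck had the highest mean in both genotypes, at 325.5 ± 8.07 RPKM in WT and 255 ± 22.4 RPKM in KO (SD, n = 3), followed by Dgka, at 293.5 ± 7.84 and 232 ± 47.8 RPKM. In KO their libraries overlapped, with Dgka above Lck in KO replicate 2. In WT, Cd4 followed at 253 ± 4.85 RPKM, and Lck, Dgka and Cd4 did not overlap each other. The next neighbours, Cd3d, Cd3g, Lat, Fyn, Cd3e, Ptprc and Cd5, overlapped from each to the next. In all, 22 of the 37 neighbouring pairs overlapped in WT. The up-regulated Themis and Ppp3ca stood near the bottom of the order, at 8.41 ± 0.862 and 7.33 ± 0.748 RPKM in WT and 14.8 ± 1.36 and 12.6 ± 0.823 RPKM in KO, with only Sos1 and Txk having lower means in WT. These 4 lowest genes overlapped from each to the next in WT. The 4 down-regulated members were all higher than these, from 48.5 ± 4.83 RPKM for Nfatc3 in WT to the level of Lck.

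**Figure D4:**
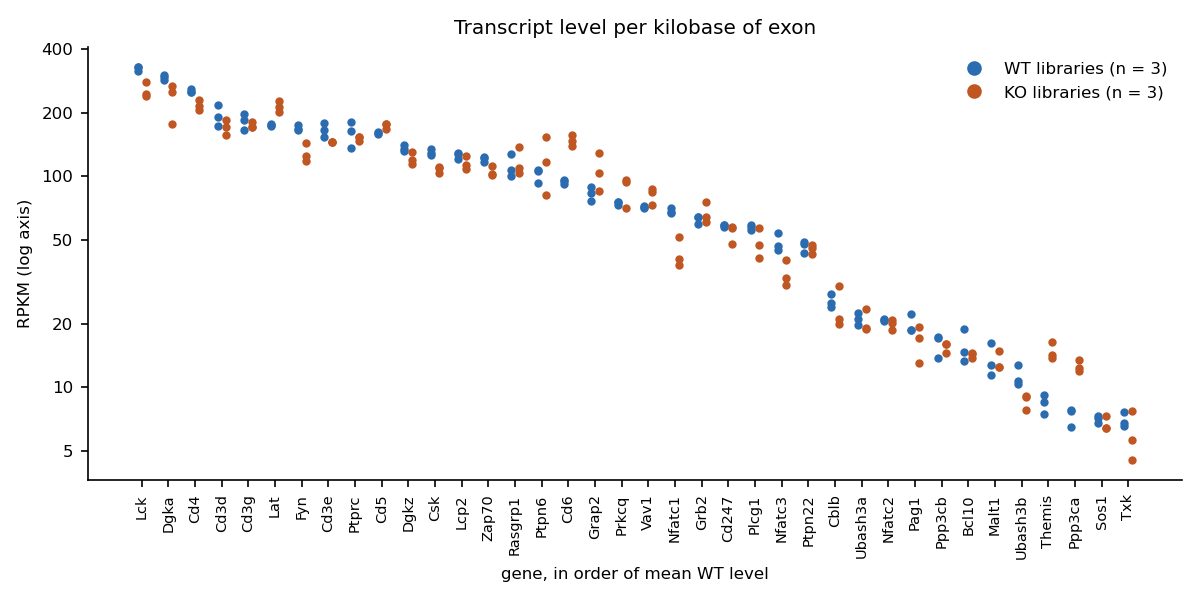
RPKM of the 38 members in each library (log axis), on merged annotated exon length and in order of the mean WT level, with WT in blue and KO in orange (n = 3 each). Themis and Ppp3ca rise within the lowest group of genes, and Lck has the highest mean in both genotypes although its KO points lie below its WT points and overlap those of Dgka.

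Set beside the sequence matches printed above, all 3 up-regulated members held a 5p match, Themis in 2 places, and Ppp3ca held a 3p match as well. Of the 4 down-regulated members, Nfatc3 held a 5p match, and no match was found in the annotated 3′ UTRs of Lck, Fyn and Nfatc1. The 10 members with a 5p match had log2 fold changes from -0.49 to 0.81 with a median of -0.07, so a 5p match was found in members of either direction. Of these 10, 3 were higher (30%) and 1 lower (10%), against 13.9% and 6.89% of the 2540 tested genes with such a match. The other 6, Cd247, Lcp2, Grap2, Sos1, Nfatc2 and Cblb, did not pass. Without a 3p match there were 8 members with a 5p match, 2 higher (25%) and 1 lower (12.5%), against 10.5% and 7.87% of such tested genes. No match of any kind was found in 22 members, 0 higher and 3 lower (13.6%), against 9.4% and 7.59% of tested genes without a match. Of the 8 members with a 3p match, Ppp3ca was higher and none was lower, against 19.7% and 5.59% of the 2451 tested genes with one. The other 7 were Cd4, Plcg1, Sos1, Rasgrp1, Pag1, Ubash3a and Dgkz, between -0.27 and 0.06, and the median of all 8 was -0.12, against 0.12 over the tested genes with a 3p match. Sos1 held 3 places matching the later-starting 3p form and 1 matching 5p and was at -0.07.

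A wider list of 67 other genes of the pathway was read for comparison. Of the 66 tested, all but Cd8a, 14 passed (21.2%, background 18.8%), 6 higher and 8 lower, and 27 (40.9%, background 41%) had no overlap between groups. Plcg2 was below 1 CPM in every WT library and was tested through KO alone, and without it 13 of 65 passed (20%), 5 of them higher. The median log2 fold change was -0.04. None of the 11 calcium genes passed by the quasi-likelihood test, among them the regulatory calcineurin subunit Ppp3r1 and the inhibitor Rcan1, although 5 of them (background 22.2%) had every KO library above WT. Of the 11, 3 had an unadjusted p under 0.05, 0 passed with the likelihood ratio or exact test and 2 passed with DESeq2.

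Among adaptors of this list, Nck2, which links receptors to the actin cytoskeleton, was at 43.4, 42.5 and 41.7 CPM in WT and 86.5, 90.8 and 92.7 CPM in KO. Its groups were separated by far more than their spread, and its log2 fold change was 1.08 (SE 0.08, FDR = 0.000668). Cd2, an adhesion receptor, was at 0.49 (FDR = 0.0152), and the inhibitory docking protein Dok1 at 0.88 (FDR = 0.00710). Rnf128, the ubiquitin ligase GRAIL, was at 1.07 (FDR = 0.0163) from a low level of 4.70 ± 0.157 CPM in WT (SD, n = 3).

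On the lower side, Lax1, an adaptor that attenuates lymphocyte signalling, was at 202, 185 and 184 CPM in WT and 108, 119.6 and 96.4 CPM in KO. No KO library came near WT, and the log2 fold change was -0.82 (SE 0.10, FDR = 0.00325). Ikbkb, the IKK-beta kinase, was at -0.51 (FDR = 0.00987), Sh2d2a, an Lck-binding adaptor, at -0.66 (FDR = 0.0155) and the adaptor Skap1 at -0.51 (FDR = 0.0180). Nck2, Dok1 and Lax1 passed in every fit that left out 1 library. Cd2 failed without WT replicate 2 or 3 or KO replicate 3, Rnf128 without any 1 of the WT replicates, Ikbkb and Sh2d2a without WT replicate 2 or 3, and Skap1 without WT replicate 1 or 3, with FDR values up to 0.0774. Plcg2, a phospholipase of B and myeloid cells named after its values were seen, was at 0.370, 0.492 and 0.332 CPM in WT and 58.1, 1.06 and 3.49 CPM in KO. KO replicate 1, in which B cell and myeloid markers were also high, was far above the others. Plcg2 was called with all 6 libraries (FDR = 0.0431) but in none of the 3 fits without 1 WT library, and without a KO library it was below the filter. The part of the other cell types in this value was not tested.

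**Figure D5:**
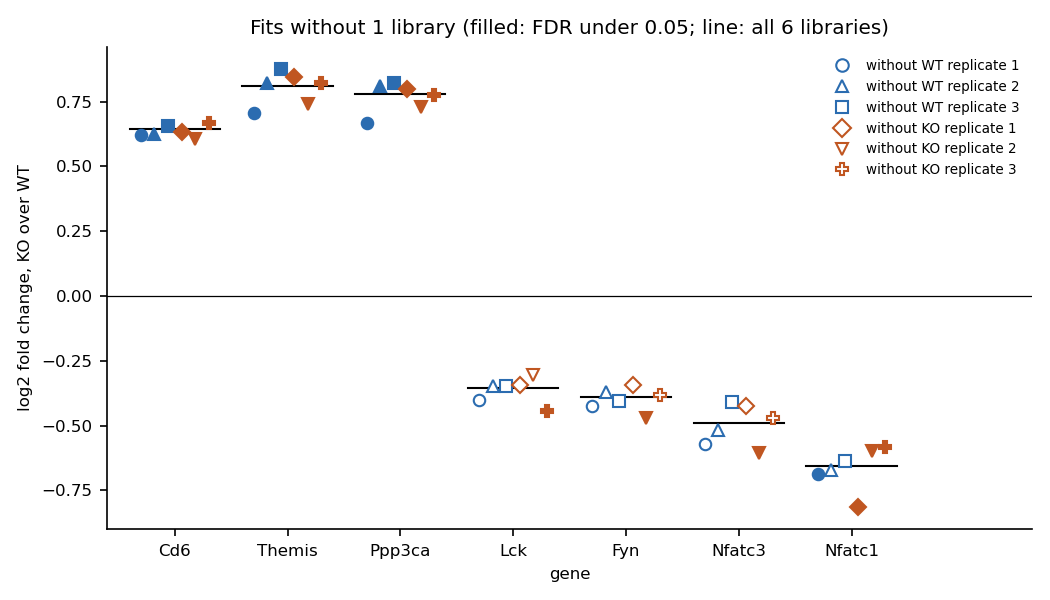
Log2 fold change of KO over WT of the 7 called members when 1 library is left out (symbols, blue for WT libraries and orange for KO libraries) and with all 6 (line); filled symbols have an FDR under 0.05. The direction never changes, Cd6, Themis and Ppp3ca are filled in 6 of 6 fits, Nfatc1 in 4, and Lck, Fyn and Nfatc3 in 1 each.

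Cd6, Themis and Ppp3ca passed in each fit without 1 library, with log2 fold changes from 0.61 to 0.67, from 0.71 to 0.88 and from 0.67 to 0.82. The count of members called lower was 1 without WT replicate 1, 0 without WT replicate 2 or 3, 2 without KO replicate 1 (Nfatc1 and Ubash3b), 5 without KO replicate 2 and 2 without KO replicate 3, against 4 with all libraries. Over all tested genes, lower calls went from 847 to 356, 208, 235, 868, 937 and 637 in these fits in the same order. The count called higher was 5 without KO replicate 1, with Grap2 and Prkcq added, 4 without KO replicate 2 and 3 otherwise.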

How the data were processed

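Treg cells of 3 WT and 3 KO mice were profiled by RNA-seq. Per the study's methods and processing notes, the authors aligned 51-base single-end reads with HISAT to mm10 and counted them per gene without regard to strand. The deposited values are raw counts, without normalization. Groups follow the labels.

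The test was that of edgeR 4.0.16 (R 4.3.3) on genes above 1 CPM in 3 or more libraries: TMM scaling, the quasi-likelihood F test without robust estimation, and a Benjamini-Hochberg FDR under 0.05 over 11658 genes. The common biological coefficient of variation was 0.212. Standard errors were derived from the test statistic. RPKM used the merged exon length per gene in GENCODE vM21. The main fit was tested on simulated counts with known changes, drawn with the same common variation for every gene. The other steps were not simulated. Alternatives covered scaling, filters, tests, DESeq2 1.42.0, a replicate block and leaving out each library.

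The members and gene lists were chosen with earlier results of these data known. Called members, with Cd3e, Cd4, Lck, Zap70 and Ptprc, were given per library, and of the wider list the 4 genes with the smallest p in each direction were named. Marker lists covered Treg, B, neutrophil, monocyte and macrophage, CD8 and NK, and erythroid cells. The 7 Treg markers summed to between 3944 and 4685 CPM in WT and between 6202 and 7196 CPM in KO, mostly through Il2ra, while Ctla4, Ikzf2 and Ikzf4 overlapped between groups.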

Additional observations from a re-analysis of the deposited data

How the results depend on the processing

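Cd6, Themis and Ppp3ca were called under every alternative run. With libraries scaled to the summed CD3 chains, 0 of the 34 members outside the CD3 chains were called lower (4 with TMM). In the wider list 10 genes were called higher and 2 lower. The median of these 34 members was 0.053, against 0.151 over all tested genes. Over all tested genes that scaling gave 1791 higher and 378 lower, and library size alone 1064 and 1201, against 1350 and 847 with TMM. Under library size alone the members' median was -0.17, against -0.061 over all tested genes. With TMM the 2 medians were -0.10 and 0.02. Without the filter on low counts, 1 member was called lower, with 3.69% of all genes. With DESeq2, which called 24.6% of all genes, 7 members were lower and 10 genes of the wider list higher. At an FDR under 0.01, which 1.68% of all genes passed as lower and 4.2% as higher, 0 members were lower, and 2 genes of the wider list were called in each direction. Without 1 library, members called higher ranged from 3 to 5 and lower from 0 to 5, the wider list from 2 to 6 and from 1 to 12, and the median from -0.165 to -0.068, while all tested genes called ranged from 691 to 2340. The scalings changed only the factor applied to each library, and the FDR under 0.01 changed only the cut. What lay behind the other changes was not tested.

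Among members not called, CD3-chain scaling turned the log2 fold change positive for Ptprc (0.050), Lcp2 (0.0097), Sos1 (0.057), Malt1 (0.107), Nfatc2 (0.071), Ppp3cb (0.084), Ptpn22 (0.088), Ubash3a (0.092) and Cblb (0.023), and library size alone turned Rasgrp1 negative (-0.014). Leaving out 1 library changed the sign of 9 members, from -0.215 to 0.014 for Ptprc, -0.019 to 0.167 for Grb2, -0.063 to 0.165 for Rasgrp1, -0.271 to 0.015 for Bcl10, -0.157 to 0.126 for Malt1, -0.173 to 0.0099 for Ppp3cb, -0.061 to 0.407 for Ptpn6, -0.125 to 0.00080 for Ptpn22 and -0.168 to 0.012 for Ubash3a. Ptpn6 and Grb2 turned negative without KO replicate 1.

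The labels link same-numbered WT and KO libraries by number alone. The correlations of their deviations from the group means were 0.0804, -0.0056 and -0.195, and not every library correlated best with its own number. With 3 libraries per group this check cannot exclude a pairing. With the replicate block, 3 members were higher and 1 lower, Nfatc1, and 1606 genes were called in all.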
